A study of Mus musculus with 27 samples.

Results

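Dexamethasone is a synthetic glucocorticoid. It enters cells, binds the glucocorticoid receptor (Nr3c1) and, through it, raises genes such as Fkbp5, Tsc22d3, Per1 and Zbtb16 and restrains inflammatory genes driven by NF-kB and AP-1. In allergic airway disease glucocorticoids are known for lowering T cell numbers, cytokines and chemokines in the lung, and some forms of severe asthma respond poorly to them.

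The comparison set 6 lungs from sensitized mice given dexamethasone (Dex_CDGHDM) against 10 lungs from sensitized mice given no drug (CDG_HDM), 16 of the 27 libraries of the series. All libraries were made from total RNA, depleted of ribosomal RNA, of 1 lung lobe (the left) per mouse, from the strain BALB/c AnNHsd at 87 days of age. Both groups had been sensitized through the airway with house dust mite extract together with cyclic di-GMP, a bacterial second messenger that activates STING and acts as an adjuvant at mucosal surfaces. The protocol ran for 35 days. The Dex_CDGHDM mice received 3 intraperitoneal doses of dexamethasone, 3 mg/kg each, on days 11, 18 and 25. The labels name no vehicle injection for the CDG_HDM mice and do not state the day on which lungs were taken. Another 6 libraries of the series, labelled antimiR-155 treated (AM155), entered the statistical model described below and are not compared here. The 5 unsensitized Saline libraries are given beside the results as a reference level. The CDG_HDM libraries serve both comparisons, so values for Saline are set side by side and not tested against the dexamethasone change. The libraries are numbered separately within each group and were treated as 1 per mouse, so p-values measure the spread between mice.

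Each gene had a value in TPM, a share of the transcripts in a library, for linear RNA and, per gene symbol, for circular RNA. Since TPM keeps no read numbers, sequencing depth is not known here. The linear and circular tables together left 15.2% to 32.8% of the TPM of a CDG_HDM library and 13.0% to 27.9% of a Dex_CDGHDM library unaccounted for. CDG_HDM 12 had the highest share outside the tables of its group and Dex_CDGHDM 3 that of its own, and Dex_CDGHDM 4 had by far the most circular RNA. The mean share was 20.4% ± 4.94 (SD, n = 10) in CDG_HDM and 18.1% ± 5.17 (n = 6) in Dex_CDGHDM (exact permutation test, two-sided, p = 0.423, adjusted p = 0.435 over 3 tests of per-library values). That share moves every TPM value of a library, so counts of calls and the leading genes are given as deposited and after rescaling by median of ratios, which sets each library against the median gene. A value with no scale named is as deposited, and changes are differences of mean log2(TPM + 1) with their SE. Lung markers were abundant in both groups: linear Sftpc, the surfactant protein of alveolar type 2 cells, had medians of 19376 TPM in CDG_HDM and 18321 in Dex_CDGHDM, and Scgb1a1 of club cells 34589 and 29598.

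Few genes separated the groups once all genes were counted. On TPM as deposited, 1 of 17437 genes (0.00573%) had an adjusted p under 0.05 in limma, a linear model across all genes, on log2(TPM + 1) with Benjamini-Hochberg adjustment, and 693 had an unadjusted p under 0.05. After median of ratios, 47 passed (0.27%), 31 higher (0.178%) and 16 lower (0.0918%) with dexamethasone, and 1833 had an unadjusted p under 0.05. All 47 had the same sign on the deposited scale, where 45 had an unadjusted p under 0.05. With the 3 libraries that stood apart left out (CDG_HDM 12, Dex_CDGHDM 3 and Dex_CDGHDM 4), no gene passed on either scale. The smallest adjusted p was then 0.806 as deposited, with 436 genes at an unadjusted p under 0.05, and 0.155 after median of ratios, with 1036. For scale, CDG_HDM minus Saline gave 5607 genes in the same model as deposited (32.2%). The mean share outside the tables was 10.1% in Saline and 20.4% in CDG_HDM. How much of that count follows the scale was not tested.

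The gene that passed on both scales was Cpne7 (chr8:123117374-123135182, plus strand, GRCm38), a member of the copine family of calcium-dependent phospholipid-binding proteins. Its linear RNA was low: the lowest, median and highest values were 1.26, 1.66 and 1.95 TPM in the CDG_HDM libraries and 0.625, 0.911 and 1.05 in the Dex_CDGHDM libraries. Every dexamethasone library lay below every CDG_HDM library, and the Saline mean was 0.474. Cpne7 fell by 0.49 ± 0.0849 on the log2(TPM + 1) scale (SE; adjusted p = 0.0452, limma) and by 0.49 ± 0.0655 after median of ratios (adjusted p = 0.00113). As deposited the call was narrow. It held without CDG_HDM 3, CDG_HDM 10 or CDG_HDM 12 and was lost when any of the other 13 libraries was left out, with the adjusted p between 0.0132 (without CDG_HDM 3) and 0.254 (without Dex_CDGHDM 3), and with a pseudocount of 0.1 (adjusted p = 0.106). After median of ratios it held without each of the 16 libraries in turn.

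**Figure D1:**
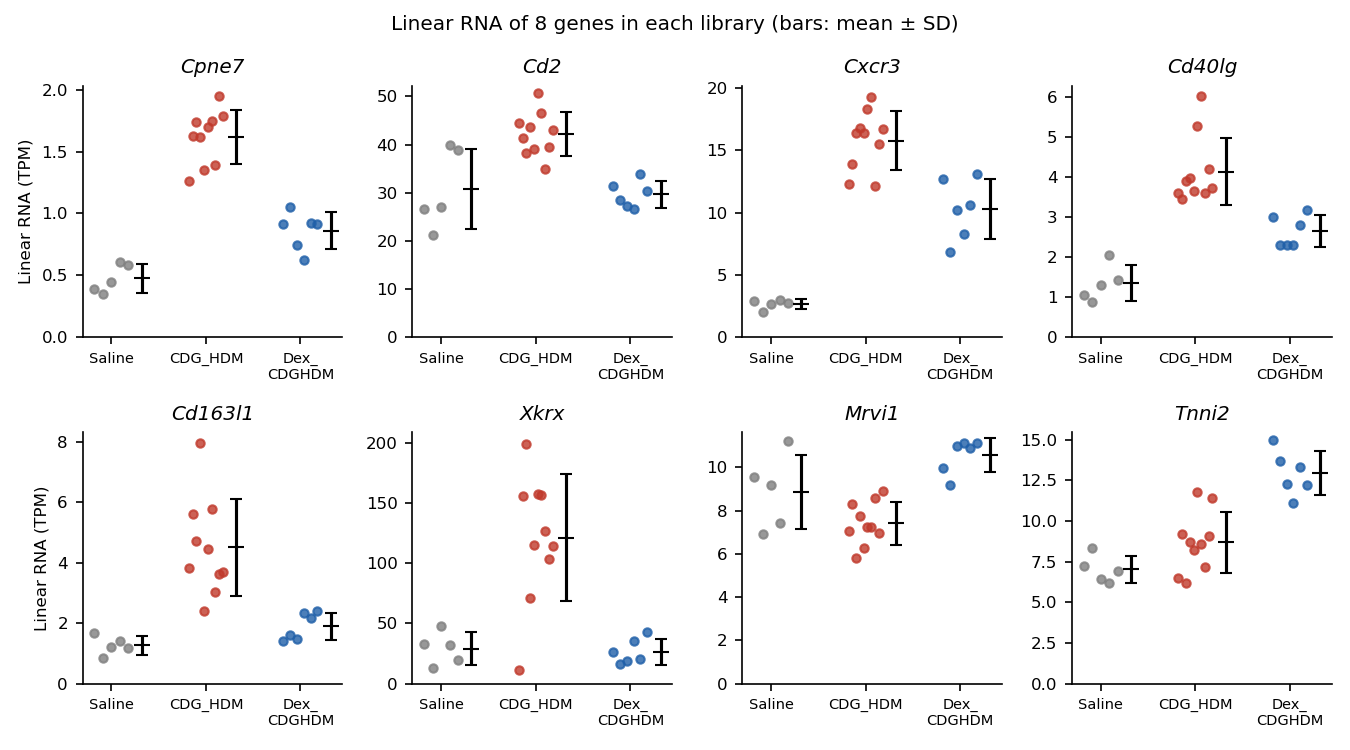
Linear RNA in TPM (vertical axes, from 0) of 8 genes in each Saline (n = 5), CDG_HDM (n = 10) and Dex_CDGHDM (n = 6) library; points are libraries and bars are mean ± SD. Cpne7, Cd2, Cd40lg and Cd163l1 had every Dex_CDGHDM library below every CDG_HDM library, Mrvi1 had every one above, and Cxcr3, Xkrx and Tnni2 overlapped.

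Of the 49 gene lists examined, T cell genes had the highest share of members lower at an unadjusted p under 0.05, on both scales. T cells recognise antigen through the T cell receptor and its CD3 chains, and their surface proteins Cd2, Cd5, Thy1 and Cd28 and kinases Lck and Zap70 relay or tune that signal. In a list of 22 T cell genes, all 22 had a log2 change below 0 with dexamethasone, beside 55.3% of all genes as deposited and 49.9% after median of ratios. Of the 22, 18 had an unadjusted p under 0.05 in that direction, beside 2.25% of all genes tested. The median change of the list was -0.41 as deposited and -0.40 after median of ratios, beside -0.01 and 0.00 for all genes. As deposited, none of the 22 passed adjustment over all genes. After median of ratios 1 did, Cd2. In whole lung, fewer T cells and less T cell RNA per cell cannot be told apart.

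Cd2, an adhesion receptor of T and NK cells (chr3:101275899-101287939, minus strand), had linear RNA of 35.0, 42.1 and 50.7 TPM (lowest, median and highest) in CDG_HDM and 26.7, 29.4 and 33.9 in Dex_CDGHDM. The groups did not overlap, as in 15 of the 17413 genes tested that carry a usable symbol (0.0861%), 8 with dexamethasone lower (0.0459%) and 7 with it higher (0.0402%). The Saline mean was 30.8 TPM. The change in Cd2 was -0.49 ± 0.102 as deposited (adjusted p = 0.0969, limma) and -0.48 ± 0.0917 after median of ratios (adjusted p = 0.0239), where the call was lost without Dex_CDGHDM 3 (0.0902) or Dex_CDGHDM 4 (0.0651) and held without each of the other 14 libraries.

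Cd3g, a chain of the CD3 complex, showed the largest change of the list, -0.67 ± 0.162 on the log2 scale (adjusted p = 0.215, limma). Its TPM ran 46.2, 62.8 and 98.6 in CDG_HDM and 24.5, 41.9 and 55.7 in Dex_CDGHDM, so 5 of 6 treated libraries lay below the lowest CDG_HDM library. Cd5, an inhibitory receptor of T cells (chr19:10717116-10739002, minus strand), ran 14.7, 16.8 and 26.4 against 7.94, 11.8 and 15.9 TPM, a change of -0.61 ± 0.137 (adjusted p = 0.176). Here too 5 of 6 treated libraries lay below all CDG_HDM libraries. Thy1, a surface glycoprotein of T cells, ran 41.9, 52.8 and 77.4 against 27.9, 40.5 and 51.9 TPM, with a change of -0.47 ± 0.14 (adjusted p = 0.526). Saline means of Cd3g, Cd5 and Thy1 were 17.1, 5.44 and 16 TPM, below both sensitized groups.

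Among signalling members, changes were -0.53 for the kinase Lck, -0.35 for the kinase Zap70 and -0.50 for the adaptor Lat. Among coreceptors, Cd4, which marks helper T cells, changed by -0.41 (unadjusted p = 0.00417). The cytotoxic coreceptors Cd8a and Cd8b1 changed by -0.20 and -0.35 with unadjusted p of 0.166 and 0.112, and the difference between helper and cytotoxic markers was not tested. The other 2 members with an unadjusted p over 0.05 were Cd27, a costimulatory receptor, at -0.17 and Lef1, a transcription factor of naive T cells, at -0.15. List members outside the rule for named genes were picked out after their values were seen.

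**Figure D2:**
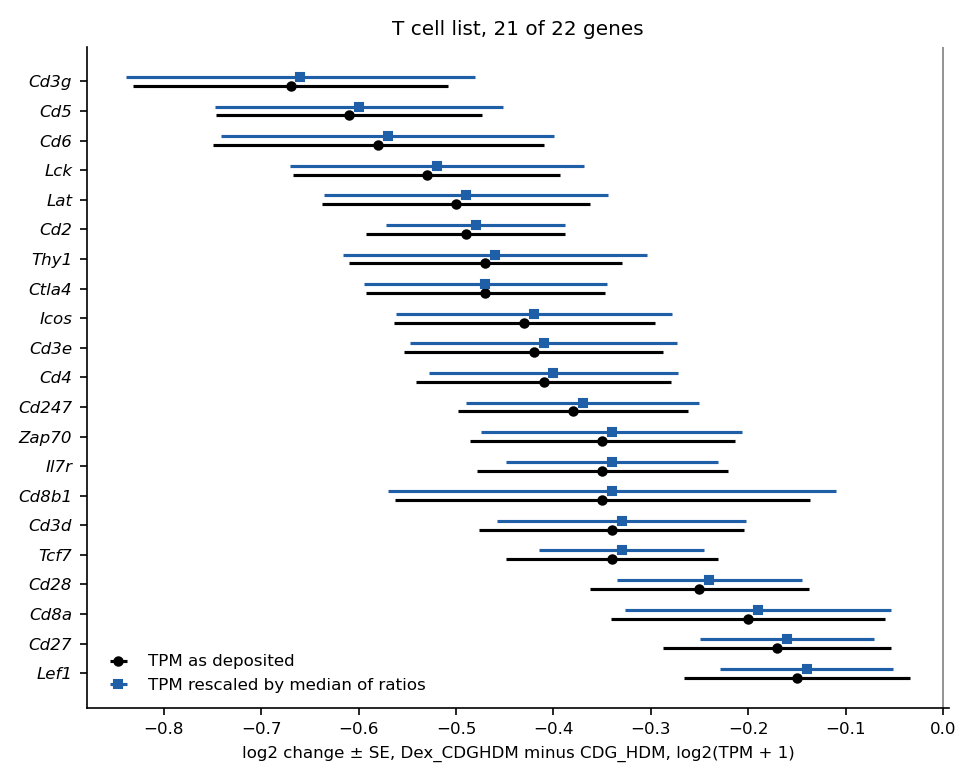
log2 change ± SE (horizontal axis, Dex_CDGHDM minus CDG_HDM) of 21 of the 22 T cell genes (vertical axis), as deposited (circles) and after median of ratios (squares). All points lie left of 0, from Cd3g at -0.67 to Lef1 at -0.15 as deposited, and the 2 scalings nearly coincide.

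The count of T cell genes did not hang on 1 library. Leaving out each library in turn left 16 to 20 of the 22 with an unadjusted p under 0.05 as deposited and 17 to 20 after median of ratios. Without the 3 libraries that stood apart the counts were 14 and 16, with medians of -0.35 and -0.38. Of the genes that fell after median of ratios and lie outside this list, 3 that lymphocytes use are given here, singled out after their values were seen. Others of lymphocytes, Cd163l1 and S1pr4, are given further below. Cd40lg, the helper T cell ligand for B cell CD40, ran 3.44, 3.81 and 6.01 TPM in CDG_HDM and 2.29, 2.55 and 3.17 in Dex_CDGHDM, with no overlap. It fell by 0.48 ± 0.107 after median of ratios (adjusted p = 0.0490, limma) and changed by -0.49 as deposited (adjusted p = 0.150). Themis, a T cell selection and signalling protein, fell by 0.46 ± 0.0921 after median of ratios (adjusted p = 0.0345), and Gimap7, a lymphocyte GTPase, by 0.68 ± 0.143 (adjusted p = 0.0406). These calls lay close to the threshold. Of the 16 fits that left out 1 library, Cd40lg passed in 3, Gimap7 in 6 and Themis in 7. All were lost without Dex_CDGHDM 3, Dex_CDGHDM 4 or CDG_HDM 12. Across those fits the changes moved less, from -0.51 to -0.42 for Cd40lg, -0.76 to -0.60 for Gimap7 and -0.50 to -0.42 for Themis. The list of thymus genes, which holds Themis, had 1 of 6 members lower at an unadjusted p under 0.05 and a median of 0.01. Its recombinase gene Rag2 had medians of 22.5 TPM in CDG_HDM and 23.9 in Dex_CDGHDM.

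Other lymphocyte lists leaned lower with fewer genes apart from 0. All 16 B cell genes had changes below 0 (median -0.30), beside 55.3% of all genes, and 2 had an unadjusted p under 0.05, beside 2.25% of all genes lower at that p. Among the 2 was Ms4a1, which encodes CD20, at -0.55. The count was 6 without CDG_HDM 10, 1 without any of 8 other libraries and 1 without the 3 that stood apart. The NK list had 10 of 11 below 0 (median -0.19) and 3 at such a p, the granule genes Gzmk (-0.37), Nkg7 (-0.51) and Prf1 (-0.28), beside the same shares of all genes. The NK count ran from 3 to 6 (without Dex_CDGHDM 1) when 1 library was left out, and was 1, with a median of -0.09, without the 3 that stood apart. Of 13 plasma cell and IgA transport genes, 10 were below 0 (median -0.19) and 2 had such a p, beside 55.3% and 2.25% of all genes. With 1 library left out, that count ran from 0 (without Dex_CDGHDM 2 or Dex_CDGHDM 4) to 4 (without CDG_HDM 3, Dex_CDGHDM 1 or Dex_CDGHDM 6). Without the 3 libraries that stood apart, 1 was higher and 0 lower, with a median of -0.06. Jchain, the joining chain of secreted IgA and IgM, ran 1686.4, 2855.3 and 3453.5 TPM in CDG_HDM and 1229.8, 2108.7 and 2623.1 in Dex_CDGHDM, a change of -0.40 ± 0.186 (unadjusted p = 0.0414, adjusted p = 1.0, limma). The groups overlapped widely, and the Saline mean was 16.7 TPM. In the lymphoid follicle list the chemokine Cxcl13, which draws B cells, changed by -0.50 (unadjusted p = 0.00563). Regulatory T cell genes had none of 10 at an unadjusted p under 0.05 and a median of -0.08.

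Interferon gamma is the main cytokine of type 1 helper T cells, Tbx21 their master regulator and Cxcr3 the chemokine receptor that brings them to inflamed tissue. All 24 genes of the type 1 and interferon gamma list had changes below 0 (median -0.19), beside 55.3% of all genes. Of them, 3 had an unadjusted p under 0.05, beside 2.25% of all genes lower at that p: Cxcr3, Ifng and Tbx21. Cxcr3 linear RNA (chrX:101731535-101734269, minus strand) ran 12.1, 16.4 and 19.3 TPM in CDG_HDM and 6.84, 10.4 and 13.1 in Dex_CDGHDM, with a Saline mean of 2.65. Of the 6 treated libraries, 4 lay below all CDG_HDM libraries. Its change was -0.59 ± 0.124 as deposited (adjusted p = 0.0969, limma) and -0.58 ± 0.13 after median of ratios (adjusted p = 0.0518).

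Ifng ran 1.49, 2.79 and 4.31 TPM against 0.865, 1.28 and 2.42, a change of -0.60 ± 0.138 (adjusted p = 0.196, limma). All 6 treated libraries lay below the CDG_HDM median. Tbx21 changed by -0.43 ± 0.119 (adjusted p = 0.402). The chemokines Cxcl9 and Cxcl10, ligands of Cxcr3 that interferon gamma induces, changed by -0.13 and -0.17 with unadjusted p of 0.588 and 0.552. Leaving out each library in turn gave 3 to 13 type 1 genes with an unadjusted p under 0.05, the 13 without Dex_CDGHDM 1. The 13 antigen presentation genes of class II were all below 0 (median -0.19), beside 55.3% of all genes, with none at such a p. Cd74, the class II invariant chain, had medians of 2499.0 and 2162.4 TPM.

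Promoters of 3 of these genes are shown because T cell genes and Cxcr3 lay lower together. Only promoters that hold a match to the motifs below were printed, so the 3 do not stand for the whole list. They are RefSeq promoters (GRCm38.p6, 250 bases before to 50 after the start, 5′ to 3′ on the gene's strand). Capitals mark matches, on either strand, to AGGAAGT, a core bound by ETS factors, and TGTGGT, a core bound by RUNX factors; the matches shown do not overlap.
Cxcr3, chrX:101734098-101734397, minus strand: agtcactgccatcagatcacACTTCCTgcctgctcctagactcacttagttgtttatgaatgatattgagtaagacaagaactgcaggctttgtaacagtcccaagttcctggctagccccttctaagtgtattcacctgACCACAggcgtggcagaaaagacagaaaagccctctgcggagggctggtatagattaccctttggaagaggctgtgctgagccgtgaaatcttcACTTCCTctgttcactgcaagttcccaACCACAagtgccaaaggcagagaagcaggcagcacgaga
Cd5, chr19:10738925-10739224, minus strand: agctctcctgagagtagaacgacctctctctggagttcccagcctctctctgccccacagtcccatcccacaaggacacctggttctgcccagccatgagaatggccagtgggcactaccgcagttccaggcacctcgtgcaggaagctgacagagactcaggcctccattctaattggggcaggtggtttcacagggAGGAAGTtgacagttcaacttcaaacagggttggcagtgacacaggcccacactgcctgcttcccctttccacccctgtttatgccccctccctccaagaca
Cd3d, chr9:44981536-44981835, plus strand: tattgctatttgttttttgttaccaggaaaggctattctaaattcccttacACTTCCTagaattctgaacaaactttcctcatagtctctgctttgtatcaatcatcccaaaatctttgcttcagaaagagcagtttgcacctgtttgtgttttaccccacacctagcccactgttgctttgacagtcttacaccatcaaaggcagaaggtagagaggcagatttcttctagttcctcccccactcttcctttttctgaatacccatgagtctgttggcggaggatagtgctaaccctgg

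Of the 22 T cell genes, 14 matched an entry, with 21 promoters, so a gene can count more than once. AGGAAGT was found in 8 of the 21 (38.1%), beside 9.35% of all 32851 promoters, and TGTGGT in 4 (19.0%), beside 16.8%. AGAACA, the hexamer that binds 1 unit of the glucocorticoid receptor dimer, was found in 4 of the 21 (19.0%) and in 19.0% of all promoters. Among the 47 genes called after median of ratios, 28 matched, with 33 promoters; AGGAAGT was in 1 of them (3.03%) and AGAACA in 6 (18.2%). A match describes letters in these windows, and binding was not measured.

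Most classical glucocorticoid target genes showed no difference at an unadjusted p under 0.05. In the glucocorticoid response list of 31 genes, 3 were higher and 1 lower at an unadjusted p under 0.05, beside 1.72% higher and 2.25% lower among all genes, and none passed adjustment on either scale. After median of ratios 4 were higher and 1 lower, beside 5.65% and 4.86%. The counts were also 4 and 1 on both scales without the 3 libraries that stood apart. With all libraries the median change was 0.01 as deposited. The receptor gene Nr3c1 had linear RNA of 57.6, 75.4 and 80.9 TPM in CDG_HDM and 62.6, 68.2 and 77.3 in Dex_CDGHDM, a change of -0.09 ± 0.087 (adjusted p = 1.0, limma).

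Fkbp5, a chaperone that damps receptor activity and is induced by it, ran 7.62, 12.9 and 20.0 TPM against 10.5, 11.4 and 13.8, a change of -0.06 ± 0.154. Tsc22d3, which encodes the anti-inflammatory protein GILZ, ran 54.9, 99.4 and 187.1 TPM against 51.3, 70.3 and 99.0, a change of -0.47 ± 0.236 (unadjusted p = 0.0559). All 6 treated libraries lay below the CDG_HDM median of Tsc22d3. Zbtb16, a transcription factor induced by glucocorticoids, ran 9.08, 39.8 and 83.7 TPM against 11.5, 21 and 39.9, a change of -0.67 ± 0.451. The clock gene Per1 changed by -0.09 ± 0.276 and the phosphatase gene Dusp1 by 0.06 ± 0.232. These 5 genes had adjusted p of 1.0 (limma), their CDG_HDM libraries spread over a wide range, and the groups overlapped in each.

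Sgk1 encodes a kinase that glucocorticoids induce, and 1 of its RefSeq promoters held the full receptor element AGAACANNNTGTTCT. That element was found in 3 of all 32851 promoters (0.00913%), those of Sgk1, Acnat2 and Gm35041, and is printed in capitals (GRCm38.p6, same window as above) because the gene carrying it can be read against its RNA.
Sgk1, chr10:21993640-21993939, plus strand: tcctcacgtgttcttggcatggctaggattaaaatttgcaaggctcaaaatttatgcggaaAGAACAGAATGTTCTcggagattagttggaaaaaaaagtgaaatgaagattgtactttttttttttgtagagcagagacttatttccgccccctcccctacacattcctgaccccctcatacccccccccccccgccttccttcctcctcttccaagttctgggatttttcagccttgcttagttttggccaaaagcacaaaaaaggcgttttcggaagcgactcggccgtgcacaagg
Linear Sgk1 ran 58.6, 83.1 and 103.3 TPM in CDG_HDM and 67.7, 89.2 and 101.7 in Dex_CDGHDM, a change of 0.07 ± 0.103 (adjusted p = 1.0, limma). The 6 treated libraries lay within the CDG_HDM range.

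The members of the response list with an unadjusted p under 0.05 were the metallothioneins Mt1 (0.26 ± 0.0924) and Mt2 (0.30 ± 0.0958), which bind zinc, and the lipase inhibitor Angptl4 (0.20 ± 0.0822), all higher, and Hif3a, lower. Hif3a, a hypoxia-inducible factor of high level in this lung, ran 1323.6, 1762.4 and 2402.2 TPM against 926.1, 1223.1 and 1541.3, a change of -0.53 ± 0.144 (adjusted p = 0.392, limma). Among 24 genes driven by NF-kB and AP-1, which glucocorticoids repress, 1 was lower at an unadjusted p under 0.05 as deposited, beside 2.25% of all genes. Under the rescaled values 3 were lower and 1 higher, beside 4.86% and 5.65%, and as deposited 4 were lower without Dex_CDGHDM 1. The 1 as deposited was Tnf, with medians of 9.18 and 6.83 TPM and a change of -0.37 ± 0.131 (unadjusted p = 0.00785). The adhesion molecule Icam1, the most abundant of them, had medians of 203.7 and 203.5 TPM.

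Type 2 genes are the classical drivers of allergic inflammation. Of 18 tested, 1 was higher and 1 lower at an unadjusted p under 0.05 as deposited, beside 1.72% and 2.25% of all genes, and 2 were higher and 0 lower after median of ratios, beside 5.65% and 4.86%. Without the 3 libraries that stood apart, 2 were higher as deposited and 3 after median of ratios, with 0 lower on either scale. As deposited the 2 were chemokines that bind Ccr4: Ccl17 at 0.44 ± 0.156 and Ccl22 at -0.34 ± 0.152. Ccl17 had medians of 17 TPM in CDG_HDM and 25.7 in Dex_CDGHDM, and Ccl22 8.46 and 6.55. Ccl8, the most abundant of the list with a Saline mean of 4.40 TPM, had medians of 223.0 and 244.4 TPM in the sensitized groups and a change of -0.12 ± 0.278. The 7 eosinophil genes tested had none at such a p (median 0.01). Of 12 type 17 genes, 1 had such a p, the cytokine Il21 at -0.27.

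Neutrophil genes lay on the other side. Of 17 tested, 16 had changes above 0 (median 0.30), beside 44.7% of all genes, and 6 had an unadjusted p under 0.05 upward, beside 1.72% of all genes. None passed adjustment. They were the granule genes Ngp (0.59), Camp (0.45) and Mmp8 (0.30), the receptors Cxcr2 (0.30) and Csf3r (0.37), and S100a9 (0.52), a subunit of calprotectin. S100a9 ran 122.1, 214.5 and 340.3 TPM in CDG_HDM and 201.7, 254.3 and 575.7 in Dex_CDGHDM, so the groups overlapped, and the Saline mean was 481.6. The count was 2 without Dex_CDGHDM 1, 9 without CDG_HDM 14 or Dex_CDGHDM 4, and 11 without the 3 that stood apart, with a median of 0.48. Defining neutrophil genes did not all move: Ly6g, the surface marker of mouse neutrophils, changed by 0.07 ± 0.191 and lactoferrin (Ltf) by -0.10 ± 0.339.

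Among other leukocyte lists, 3 of 10 mast cell and basophil genes were higher and 1 lower at an unadjusted p under 0.05, beside 1.72% and 2.25% of all genes. The count higher was 1 without Dex_CDGHDM 1 or Dex_CDGHDM 2 and 4 without Dex_CDGHDM 4. The mast cell carboxypeptidase Cpa3 had medians of 7.49 TPM in CDG_HDM and 10.2 in Dex_CDGHDM and a change of 0.41 ± 0.144, and the tryptases Tpsab1 and Tpsb2 changed by 0.24 and 0.27. Ms4a2, a chain of the IgE receptor, changed by -0.31 ± 0.111. In 20 macrophage and monocyte genes 1 had such a p, and the abundant Lyz2 and Apoe had changes of -0.06 and 0.04. Arg1 of alternatively activated macrophages changed by 0.35 ± 0.11 (unadjusted p = 0.00304).

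**Figure D3:**
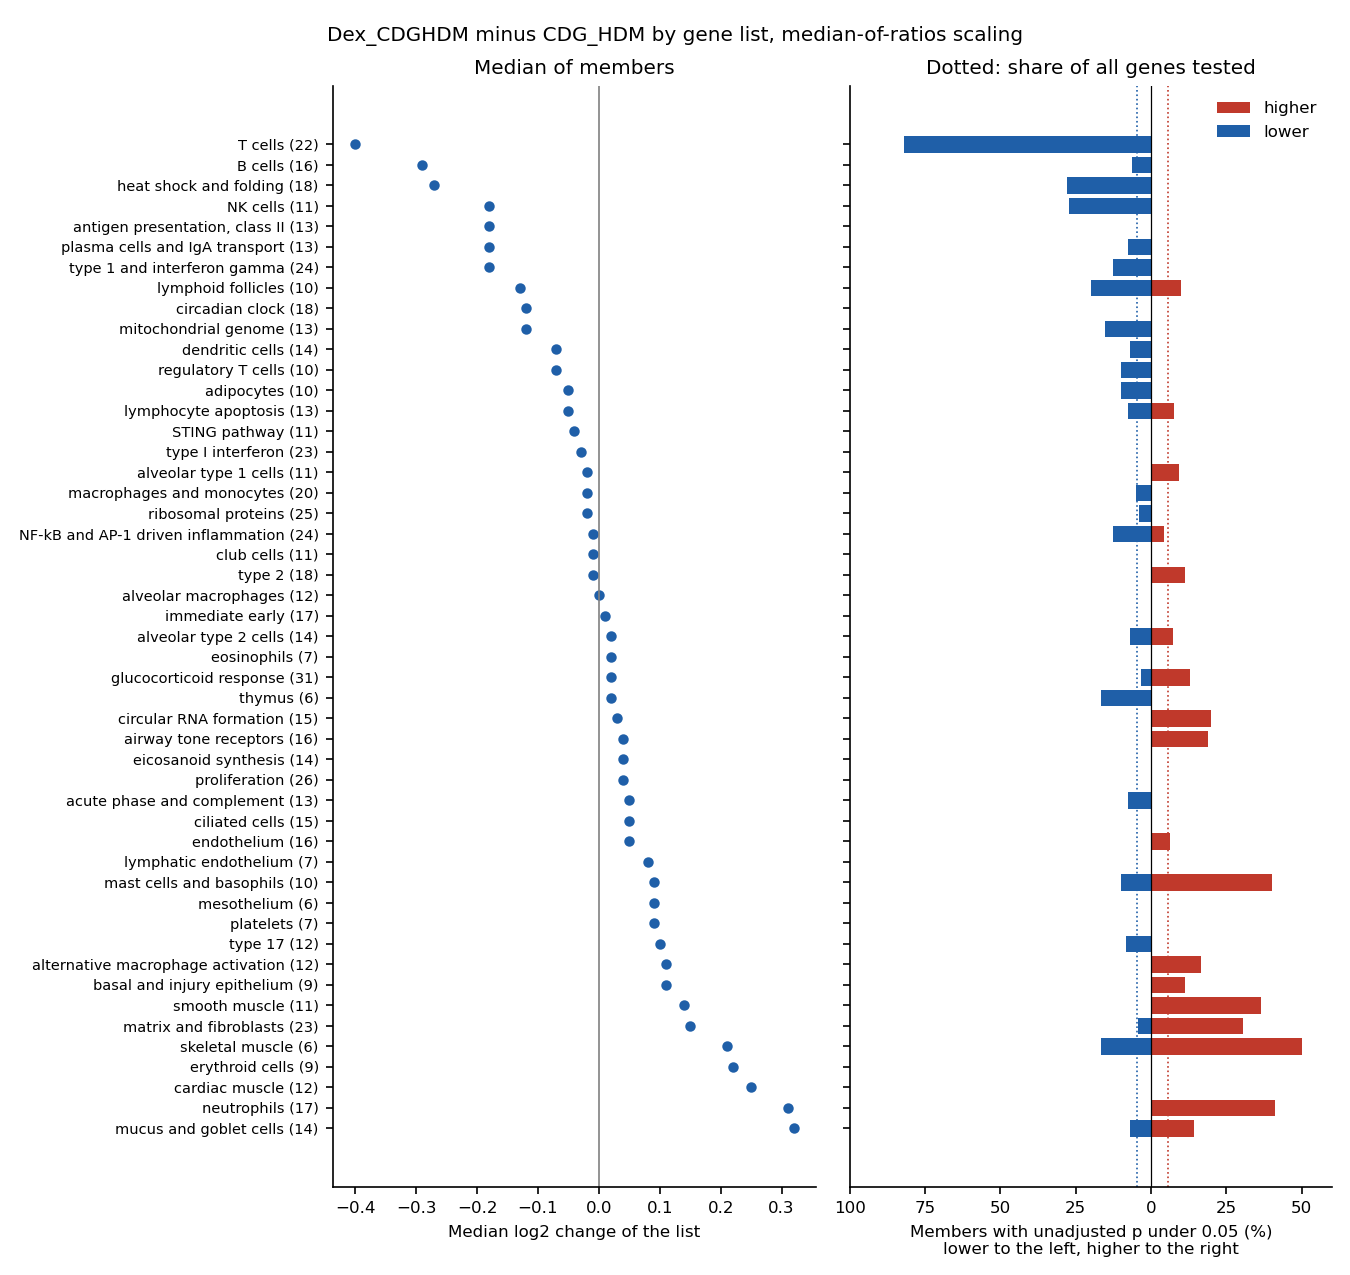
Gene lists (vertical axis, number of genes tested in parentheses) by the median log2 change of their members (left) and by the percent of members with an unadjusted p under 0.05 (right; lower to the left, higher to the right), both after median of ratios, with dotted lines at the shares of all genes tested (4.86% lower, 5.65% higher). T cells stand at the lower end with 18 of 22 members and a median of -0.40, and neutrophils (0.31) and mucus genes (0.32) at the upper end.

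Genes that rose with dexamethasone after median of ratios had modest changes. The 31 had changes from 0.15 (Fbxw9) to 0.55 (Tnni2), and none passed on the deposited scale. Tnni2, a troponin of fast skeletal muscle, ran 6.19, 8.66 and 11.8 TPM in CDG_HDM and 11.1, 12.8 and 15 in Dex_CDGHDM, and 5 of 6 treated libraries exceeded every CDG_HDM library. It rose by 0.55 ± 0.118 (adjusted p = 0.0449, limma), a call that held in 5 of the 16 fits that left out 1 library. As deposited the change was 0.54 ± 0.111 (adjusted p = 0.0969). In the skeletal muscle list 5 of 6 genes had changes above 0 as deposited, beside 44.7% of all genes. At an unadjusted p under 0.05, 2 were higher and 1 lower, beside 1.72% and 2.25%. After median of ratios 3 were higher and 1 lower, beside 5.65% and 4.86%. Without the 3 libraries that stood apart, 4 were higher as deposited. Another gene of the list, Mylpf, changed by -0.33 ± 0.136 as deposited.

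Mrvi1 (chr7:110868266-110982461, minus strand), a target of cGMP-dependent kinase in smooth muscle, was among the risers without overlap. It ran 5.80, 7.23 and 8.91 TPM against 9.20, 10.9 and 11.1, with a Saline mean of 8.86. It rose by 0.47 ± 0.0836 after median of ratios (adjusted p = 0.0203, limma), and the call was lost without Dex_CDGHDM 3 (0.0709) or Dex_CDGHDM 4 (0.0651). As deposited its change was 0.46 ± 0.0952 (adjusted p = 0.0969). Of the other risers, Grin2c, B3gnt9, Olfml3 and Fbxl7 also had groups that did not overlap. B3gnt9 had the smallest adjusted p of the risers (0.00971 after median of ratios, limma).

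Of the 31 risers, 7 with roles in mesenchymal cells or cGMP signalling are given here, singled out after their values were seen and belonging to no list. Gucy1a3, a subunit of the nitric oxide receptor guanylate cyclase, rose by 0.29 ± 0.0576, and Pde5a, the phosphodiesterase that breaks down cGMP, by 0.30 ± 0.0655. Their medians were 67.3 and 48.8 TPM in CDG_HDM and 83.8 and 58.2 in Dex_CDGHDM, with Saline means of 104.4 and 67.8. Pdgfrb, the PDGF receptor of pericytes and fibroblasts, rose by 0.27 ± 0.0483 and Tbx4, a transcription factor of lung mesenchyme, by 0.30 ± 0.0612. Matrix-associated genes among the risers were Mfap4 (0.36 ± 0.0773), a microfibril protein, the protease gene Adamts15 (0.39 ± 0.0865) and the collagen receptor gene Mrc2 (0.33 ± 0.0665). All 7 passed limma's test after median of ratios and none as deposited, and Pde5a had a deposited change of 0.28 ± 0.116.

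The gene lists for these cells were less clear. Of 23 matrix and fibroblast genes, 18 had changes above 0 as deposited, beside 44.7% of all genes. At an unadjusted p under 0.05, 3 were higher and 1 lower, beside 1.72% and 2.25%. After median of ratios 7 were higher and 1 lower, beside 5.65% and 4.86% of all genes, with 18 of 23 still above 0, beside 50.1% of all genes, and none passed adjustment. As deposited the count higher was 1 without Dex_CDGHDM 4 and 7 without CDG_HDM 10. Lumican (Lum) changed by 0.36 ± 0.12, Loxl1, which cross-links elastin, by 0.23 ± 0.105 and Tgfb1 by -0.21 ± 0.0844 as deposited. Of 11 smooth muscle genes, 1 was higher at such a p as deposited, beside 1.72% of all genes. After median of ratios 4 were higher, beside 5.65%, led by the myosin kinase Mylk (0.27 ± 0.109 as deposited). Acta2, smooth muscle actin, had medians of 104.6 and 115.9 TPM. All 12 cardiac muscle genes, which mark the sleeve of pulmonary veins, had changes above 0, beside 44.7% of all genes. At such a p, 1 was higher as deposited, beside 1.72%, and 0 after median of ratios, beside 5.65%. Myl7 spread from 32 to 184.5 TPM in CDG_HDM and from 100.5 to 164.7 in Dex_CDGHDM.

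Epithelial lists varied. Of 14 mucus and goblet cell genes, 12 had changes above 0 (median 0.32), beside 44.7% of all genes, with 2 higher and 1 lower at an unadjusted p under 0.05, beside 1.72% and 2.25%. Itln1, an intestinal-type lectin of goblet cells, changed by 0.54 ± 0.197 and Fcgbp, a mucus protein, by 0.41 ± 0.2. Without Dex_CDGHDM 1 no mucus gene was higher at such a p, and the median was 0.16. Muc5ac, the inducible airway mucin, had medians of 0.955 and 1.11 TPM. No club or ciliated cell gene had such a p. Akap5, counted with the alveolar type 1 genes, ran 97.8, 119.9 and 161.7 TPM against 151.6, 170.5 and 178.6, with 4 of 6 treated libraries above every CDG_HDM library and a Saline mean of 224.3. It rose by 0.42 ± 0.0784 after median of ratios (adjusted p = 0.0207, limma) and changed by 0.41 ± 0.12 as deposited (adjusted p = 0.513). The call was lost without Dex_CDGHDM 3 (0.0975) or Dex_CDGHDM 4 (0.0651). The other 10 type 1 genes had no such p, and Ager, their abundant marker, changed by 0.06 ± 0.112.

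Further genes that fell after median of ratios lie outside the lymphocyte lists. Xkrx (chrX:134149043-134162076, minus strand), a relative of the XK membrane protein, had the largest change, a fall of 1.97 ± 0.405 on the log2 scale (adjusted p = 0.0391, limma). It ran 11.7, 120.9 and 199.1 TPM in CDG_HDM and 16, 23.1 and 43.1 in Dex_CDGHDM, with a Saline mean of 29.0. CDG_HDM 3 alone, at 11.7 TPM, made the groups overlap, since the other CDG_HDM libraries lay at 70.7 TPM or above. As deposited Xkrx changed by -1.98 ± 0.383 (adjusted p = 0.0969), and without CDG_HDM 3 the adjusted p was 5.05e-06. After median of ratios the call held in 6 of the 16 fits that left out 1 library.

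Cd163l1 (chr7:140218267-140231145, plus strand), a scavenger receptor cysteine-rich protein of gamma delta T cells, ran 2.40, 4.14 and 7.95 TPM in CDG_HDM and 1.42, 1.88 and 2.39 in Dex_CDGHDM, without overlap. It fell by 0.88 ± 0.163 after median of ratios (adjusted p = 0.0203, limma), a call lost without Dex_CDGHDM 3 (0.0859), and changed by -0.89 ± 0.182 as deposited (adjusted p = 0.0969). S1pr4, a sphingosine phosphate receptor of lymphocytes, fell by 0.32 ± 0.0644 and Atp2a3, a calcium pump of blood cells, by 0.24 ± 0.0501 after median of ratios. Apoc1, an apolipoprotein of macrophages, had groups that did not overlap, 59.6 to 89.5 TPM against 37.2 to 59.0, and a change of -0.56 ± 0.117 that did not pass (adjusted p = 0.0969 as deposited, 0.0670 after median of ratios). Scd1, a fatty acid desaturase of alveolar type 2 cells, also had groups that did not overlap, with no pass (adjusted p = 0.549 as deposited).

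Heat shock and folding genes leaned lower with a count that moved widely with single libraries. Of 18, 17 had changes below 0 (median -0.28), beside 55.3% of all genes, and 3 an unadjusted p under 0.05, beside 2.25% of all genes lower at that p. That count was 12 without CDG_HDM 12, 0 without Dex_CDGHDM 4 and 0 without the 3 libraries that stood apart. The chaperone gene Hsph1 ran 13.6, 36.6 and 75.7 TPM in CDG_HDM and 10.7, 17.5 and 38.6 in Dex_CDGHDM. Genes of red blood cells, which trapped blood brings into whole lung, had all 9 changes above 0 (median 0.21), beside 44.7% of all genes. None had an unadjusted p under 0.05. The mitochondrial genome had 12 of 13 below 0 (median -0.13), beside 55.3%, and 2 lower at such a p, beside 2.25%.

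**Figure D4:**
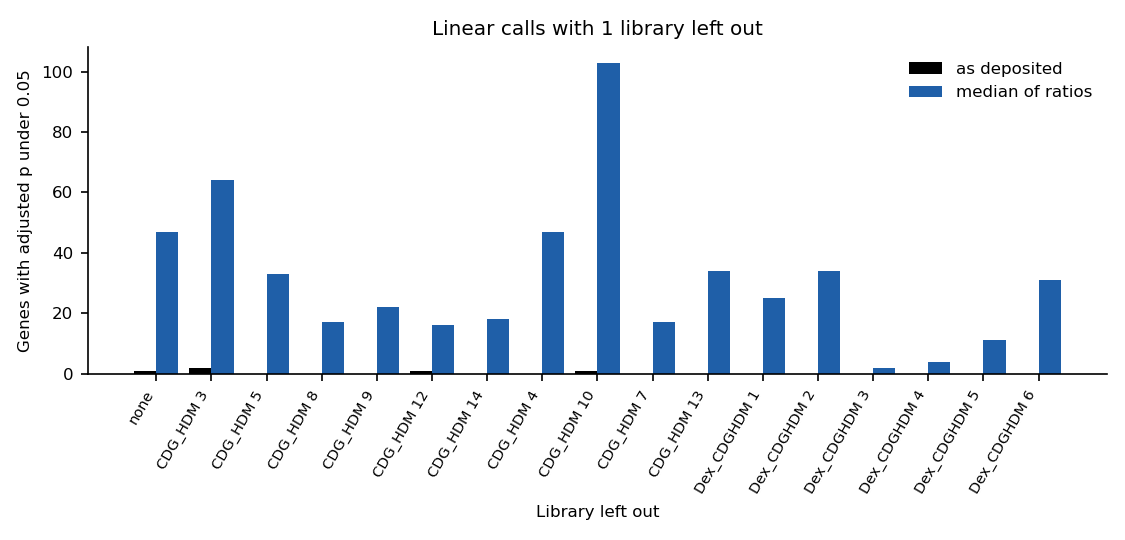
Number of genes with an adjusted p under 0.05 (vertical axis) when no library or 1 named library (horizontal axis) was left out, as deposited (black) and after median of ratios (blue). The blue bars run from 2 without Dex_CDGHDM 3 to 103 without CDG_HDM 10, and the black bars from 0 to 2.

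Circular RNA forms when a splice donor joins an upstream acceptor, which closes the exon into a ring. The circular table gives 1 value per gene symbol with no junction coordinates, so a value can hold several circular RNAs. Of 2271 genes in the test, 0 (0.0%) had an adjusted p under 0.05 (limma), and 113 had an unadjusted p under 0.05 (4.98%). With a pseudocount of 1 TPM in place of 3.48e-06, 1 gene passed. The ratio of circular to linear RNA gave 0 of 2263 calls, with 111 at an unadjusted p under 0.05. In simulated data (2271 genes, 50 changed per size) this test recovered 12% of 4-fold and 14% of 16-fold changes. It recovered 20% of the largest changes simulated, which exceeded 16-fold. Its recovery of circular changes in the real data was not tested.

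The circular gene with the smallest p was Sema5a, a guidance receptor, listed at 0 in 8 of 10 CDG_HDM libraries and in all Saline libraries and at 3.29, 3.89 and 5.80 TPM (lowest, median and highest) in Dex_CDGHDM (adjusted p = 0.148, limma). Its linear RNA changed by 0.20 ± 0.103. Circular Smg6, from a nonsense-mediated decay gene, was above 0 in 2 of 10 CDG_HDM and all 6 Dex_CDGHDM libraries, and in all 5 Saline libraries at a mean of 17.2 TPM. Circular Paip1 went the other way, above 0 in 9 of 10 CDG_HDM and 1 of 6 Dex_CDGHDM libraries (adjusted p = 0.191). Circular Ap3s1 and Thbs3 were listed at 0 in all CDG_HDM libraries and above 0 in 4 of 6 treated ones, each with an adjusted p of 0.148. A value of 0 here can also be a missed estimate, so no fold is given.

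The sum of circular TPM was 93692.7 ± 75841.7 (SD, n = 6) in Dex_CDGHDM and 49499.9 ± 13262.0 (n = 10) in CDG_HDM (exact permutation test, two-sided, p = 0.0784, adjusted p = 0.235 over 3 tests). Circular Sftpc carried the gap: it was 197545 TPM in Dex_CDGHDM 4 and 61473 in Dex_CDGHDM 2, against at most 17753 in CDG_HDM. Without circular Sftpc the sums were 46924.3 ± 4575.2 and 45119.6 ± 14146.0 (exact permutation p = 0.751). Linear Sftpc showed no such peak, with 17162 TPM in Dex_CDGHDM 4 in a group that ran up to 22103. Linear and circular TPM share a total, so high circular values lower the linear ones. The linear sum of Dex_CDGHDM 4 was 629353 TPM, the lowest of its group, so its low linear Sftpc cannot be told apart from scale. The number of circular genes above 0 was 1496.5 ± 111.9 in Dex_CDGHDM and 1415.5 ± 227.1 in CDG_HDM (exact permutation p = 0.435).

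**Figure D5:**
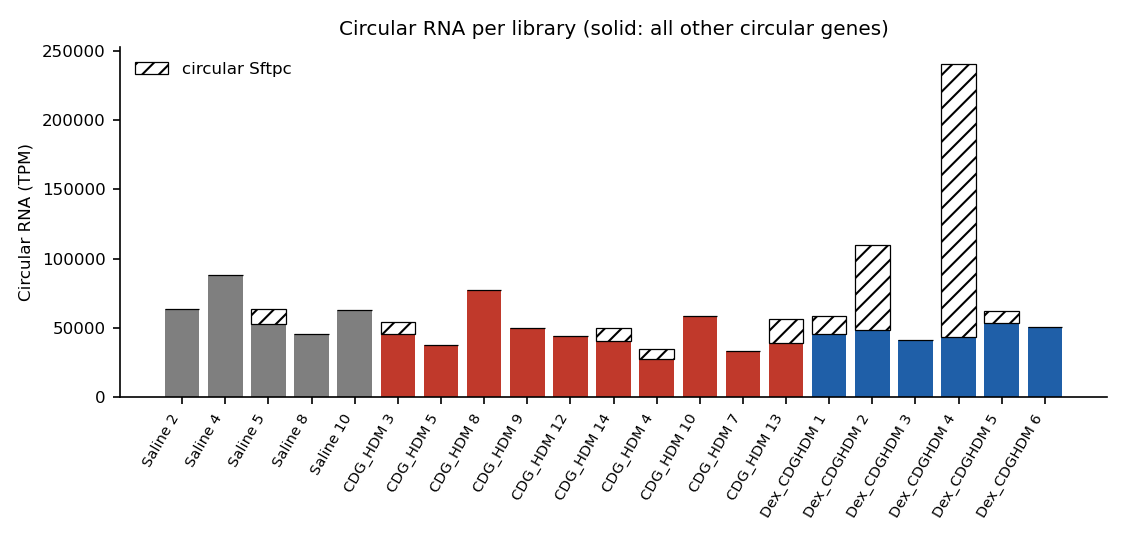
Circular RNA in TPM (vertical axis) per library (horizontal axis), with circular Sftpc hatched on top of all other circular genes, coloured by group (Saline grey, CDG_HDM red, Dex_CDGHDM blue). The Dex_CDGHDM 4 bar reaches 240756 TPM, of which 197545 is circular Sftpc, while the solid parts of the 6 Dex_CDGHDM bars lie between 41294 and 53595.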

How the data were processed

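Linear and circular RNA values are TPM, deposited by the authors in 2 tables by gene symbol. The build mm10 and CASAVA 1.9 come from the submitters' processing notes. The sources used here name no aligner, quantifier, annotation or filter. The labels name 2 read lengths, and which applies was not settled. Symbols turned into dates (26 linear, 9 circular) are not named, and values of a few other genes are not reported here. Gene positions are from GENCODE M21 (GRCm38).

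All 27 libraries entered 1 limma 3.58.1 model (R 4.3.3; lmFit, contrasts.fit, eBayes with a trend) on log2(TPM + 1), for 17437 genes that reached 1 TPM in 5 or more libraries. They included the 6 antimiR-155 treated libraries (AM155), which shared in the estimate of the spread and in the median-of-ratios factors. The contrast was Dex_CDGHDM minus CDG_HDM, two-sided, with Benjamini-Hochberg adjustment over all genes. Log2 changes on this scale understate those of low genes. Median-of-ratios factors used 17361 genes above 0 in every library. Circular RNA used log2(TPM + 3.48e-06) for 2271 genes above 0 in at least 5 libraries. With such a pseudocount the test is close to one of presence against absence. Per-library values were compared by exact permutation over 8008 splits (scipy 1.17.1).

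On simulated data (17437 genes, 50 changed per size) the linear model recovered 36% of 1.25-fold and 86% of 1.5-fold changes, and 9 of 170 calls were false. Each gene was drawn independently, with no shift shared by the genes of a library. The real libraries do differ in such shifts, so these shares do not give the recovery in the real data. The circular model recovered 12% of 4-fold and 14% of 16-fold changes in simulated data, and its recovery in the real data was not tested.

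The 49 gene lists and the groups compared were chosen with earlier results of these data known, so lists are described by counts and medians and not tested. The rule for named genes took the 15 largest passing rises and falls, the 10 smallest p where fewer than 10 passed, list members that passed, the 2 most abundant members of each list, 7 glucocorticoid genes, and the 5 circular genes with the smallest p or highest mean. Several genes that met the rule, among them passing rises and falls, are not described. Others described were picked after their values were seen, so the genes shown do not stand for all calls. Alternatives were other pseudocounts, filters, scalings, library weights, robust fitting, a replicate block and leaving out libraries. The leave-out of 3 libraries, the alternatives run under median of ratios, the circular pseudocount of 1 and the sum without circular Sftpc were chosen after seeing the data.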

Additional observations from a re-analysis of the deposited data

Results flagged for a closer look

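Single libraries stood far from the rest of their group (Dixon's ratio above its 95% critical value) in 9 of 98 groups of values tested. The rate of about 1 in 20 by chance holds for independent, normal values. Some groups here are linked, such as the circular sum and circular Sftpc, so the count cannot be judged against that rate. Dex_CDGHDM 4 had a circular sum of 240756 TPM, where the other 5 ran from 41294 to 109468, and circular Sftpc of 197545 TPM, where the others ran from 0 to 61473. CDG_HDM 12 had 32.8% of its TPM outside the tables (others 15.2% to 22.7%) and a linear sum of 628177 TPM (others 732362 to 798457). Dex_CDGHDM 3 had 27.9% outside the tables (others 13.0% to 18.3%). Among named genes, Xkrx was 11.7 TPM in CDG_HDM 3 (others 70.7 to 199.1) and Col6a5 was 1.52 in CDG_HDM 13 (others 0.759 to 1.07). Stab1 was 50.7 TPM in Dex_CDGHDM 4 (others 65.7 to 73.1) and Pla2g4b was 0.71 in Dex_CDGHDM 2 (others 0.407 to 0.485).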

How the results depend on the processing

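As deposited, 1 linear gene passed. Other scalings gave 47 (median of ratios), 35 (linear table rescaled to 1 common sum) and 63 (quantile normalization), and library weights gave 11. The 16 libraries alone, with Saline and AM155 left out of the model, gave 2 as deposited and 6 after median of ratios. No filter gave 2. At least 5 TPM, a pseudocount of 0.1 and leaving out the 3 libraries that stood apart gave 0. Leaving out 1 library gave 0 to 2. After median of ratios the count of 47 became 209 with library weights and 6 with the 16 libraries alone. It was 0 without the 3 libraries and 2 to 103 without 1 library: 2 without Dex_CDGHDM 3, 4 without Dex_CDGHDM 4, 11 without Dex_CDGHDM 5 and 16 without CDG_HDM 12, but 103 without CDG_HDM 10. Circular calls were 1 with a pseudocount of 1, and circular and ratio calls were 0 to 1 without 1 library. The cause of these shifts was not tested.

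The groups share the numbers 3, 4 and 5, whose same-numbered libraries had correlations of -0.11, -0.24 and 0.02 between their deviations. The numbers were therefore not taken to pair the mice, though 3 correlations cannot settle it. The replicate block was fitted only to the libraries numbered 3, 4 and 5 of the CDG_HDM and Dex_CDGHDM groups, and 0 genes passed on either scale. With so few libraries, that fit is not a blocked version of the main model and its power is low. Under that block Dusp1 changed by -0.14 and Sgk1 by -0.08, the opposite sign to the values reported.

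The difference in circular sum ran from 14780.1 to 54672.5 TPM without 1 library, with exact permutation p of 0.0392 without CDG_HDM 8 and 0.0346 without Dex_CDGHDM 3. The difference in the share outside the tables ran from -4.25 to -0.936 percentage points, with p = 0.0380 without Dex_CDGHDM 3. The number of circular genes above 0 differed by 43.3 to 124.4.

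Of 1269 gene settings, 9 reversed a sign, all in glucocorticoid genes near 0. Besides the block, without 1 library Fkbp5 ran from -0.13 to 0.02, Per1 from -0.26 to 0.02 and Dusp1 from -0.16 to 0.18. Per1 became 0.02 with library weights and 0.11 without the 3 libraries. TPM keeps no depth, so no counting error can be given for low genes.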
